A study of Mus musculus with 4 samples.

Results

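The genes described here encode serum amyloid A, complement components, lysozymes, haptoglobin and orosomucoid, together with receptors by which macrophages take up particles. They were chosen by gene symbol, among others any Saa gene with a number, C1qa, C1qb, C1qc, C3, C4b, Cfb, Cfd, Cfp, Lyz1, Lyz2, Hp, Marco, Msr1, Mrc1, Timd4, Mertk, and any symbol that begins with Orm. The pattern matched 16 of the 5807 genes in the table. RefSeq annotates 27 mouse genes with such symbols, all protein-coding, and the 11 that were not listed are C1qc, Cfd, Mertk, Orm2, Orm3, Ormdl1, Ormdl2, Saa1, Saa2, Saa4 and Timd4. The listed genes are those the authors called different between the tissues. The study states that this was by a p-value and a change of over 2-fold in its own comparison. The ratios below were calculated separately from the tissue means, and a listed gene can lie within 2-fold here. Whether every listed gene passes the authors' threshold was not checked. An unlisted gene has no value and no direction here, and the counts below describe the listed genes alone. Ormdl3 was matched by its spelling. It encodes a regulator of sphingolipid synthesis and is not an orosomucoid.

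Eosinophils were sorted from WT mice 6 to 8 weeks old that had received an intrapleural injection of 150000 LLC cells, which are Lewis lung carcinoma cells of mouse origin. The groups compared are eosinophils of pleural lavage fluid, called pleural cavity eosinophils, and eosinophils of the bone marrow, both taken on day 2 and, by their labels, both from LLC-injected mice, with 2 libraries per tissue. The study's results call the marrow cells naïve, the sources name more than 1 WT strain without tying any to these libraries, and whether animals were pooled is not given in the sources used here. The gates differed. Pleural cavity cells were taken as CD11c-negative, Gr1-negative or low, CD11b+F4/80+SiglecF+ with high side scatter, while marrow cells were taken as CD45+SiglecF+ with high side scatter after enrichment on F4/80, with no step against Gr1 or CD11c. The methods give the sorts a purity of over 99%.

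For each gene the table gives the authors' mean of reads per tissue, estimated by RSEM and not scaled for depth. Values per library were not used here, so no spread between replicates and no test can be given, and a difference has no replicate check. The listed genes sum to 15947438 mean reads in the pleural cavity and 11762543 in the marrow, which is not the depth of a library. Ratios were taken after scaling both tissues to the same sum, and log2 ratios after adding 1 scaled read. The 95% intervals of folds are exact binomial intervals on the reads of both libraries of each tissue and cover counting error only. In sorted bulk samples, more cells of a type and more RNA per cell cannot be told apart.

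Serum amyloid A proteins are acute-phase apolipoproteins, induced by inflammatory cytokines through C/EBP, STAT3 and NF-κB factors. The liver makes Saa1 and Saa2, while Saa3 is known mainly from macrophages, fat and epithelia. Complement is a chain of plasma proteins: C1q recognises immune complexes and dying cells, C4 and C3 are split and bind to surfaces, factor B and properdin drive the alternative pathway, and receptors on leukocytes read the fragments. Macrophages make C1q themselves and clear particles through the scavenger receptors MARCO and MSR1.

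Across the 16 genes the tissues differed in both directions. Of these, 8 were higher in pleural cavity eosinophils by over 2-fold, where 929 of all 5807 listed genes (16.0%) were, and 6 were lower by over 2-fold, where 2935 listed genes (50.5%) were. C1qa and Cfp lay within 2-fold. The median log2 ratio was 1.17 over the 16 genes and -1.02 over all listed genes. The split of all listed genes depends on the scaling: higher genes made up 24.0% of those past 2-fold here and 41.4% without scaling, which shifts the median of all genes by 0.44 on the log2 scale. With TMM scaling the share was 30.3% and the shift 0.19. With the 20 most abundant genes of either tissue left out of the sums, they were 18.3% and -0.20. No member changed direction under any of these scalings.

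Saa3 had rank 2 of 5807 by log2 ratio, and rank 4 where 0.1 in place of 1 scaled read was added. Its mean reads were 13778.5 in pleural cavity eosinophils, against 16.5 in the marrow, which ranks it 209 of 5807 genes in the pleural cavity and 5433 in the marrow. Scaled to the same sum, the pleural cavity value was 616-fold higher (95% counting interval 439 to 895), a log2 ratio of 9.19. Tppp3, a tubulin-binding protein gene, was the 1 listed gene with a larger log2 ratio by the main measure. It had 9.59 with 79621.5 and 75.495 mean reads, and its reads were divided with other genes. Saa3 lies on the minus strand of chromosome 7 of GRCm38, from 46711998 to 46715700. No stretch of 100 bases, the read length, in its longest transcript occurs in a transcript of another gene, and its mean reads are whole or end in 0.5, as means of 2 undivided counts do. Its coding sequence of 366 bases is 73.0% identical to that of Saa1 and 71.3% to that of Saa2, whereas Saa1 and Saa2 are 95.1% identical to each other.

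At 1000 or more mean reads in the pleural cavity, 2197 genes were listed. Among them, the 5 with the log2 ratio nearest to that of Saa3, over the 2 tissue means, were Tppp3, Thbs3, Enkur, Cyp26a1 and Ednrb. Their log2 ratios ran down from 9.59 through 8.23 for Thbs3, 7.71 for Enkur and 6.73 for Cyp26a1 to 6.70 for Ednrb, so Saa3 and Tppp3 stand nearer to each other than to the rest. Genes next to Saa3 in the order of pleural cavity reads did not share its ratio. Stk10 and Lamp1, just above it with 13924.5 and 13847 mean reads, had log2 ratios of 1.71 and 0.52. Il1rl1 and Emp3, just below with 13613.04 and 13601.5, had 2.59 and 1.11, and reads of Il1rl1, which encodes the IL-33 receptor, were divided with other genes.

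Within 200 kb of Saa3 on chromosome 7 lie 11 other protein-coding genes. Of these, 4 were listed, and none of the 4 was higher by over 2-fold. Saal1, next to Saa3 and named for its likeness to serum amyloid A, had 228 mean reads in the pleural cavity and 369.5 in the marrow, a log2 ratio of -1.13. The lactate dehydrogenase genes Ldha and Ldhc had log2 ratios of 0.53 and -2.70, and Tsg101, an endosomal sorting gene, had 0.33. The other Saa genes, which share this cluster, were not listed.

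The acute-phase genes Hp and Orm1 were lower in the pleural cavity, unlike Saa3. Haptoglobin, encoded by Hp, binds free haemoglobin. Hp had 413.5 mean reads in the pleural cavity and 13328.5 in the marrow, 43.7-fold lower (interval 40.8 to 46.9). Orm1, the gene for the plasma carrier orosomucoid 1, had 4 and 446 mean reads, 151-fold lower with a wide interval of 76.4 to 351. Of its longest transcript, 6.95% of 100-base windows also occur in Orm2.

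In a wider list of 32 acute-phase genes, 11 were listed. Besides Saa3, 1 was higher by over 2-fold, Cd14 with 1638.5 and 424 mean reads, which encodes a co-receptor for bacterial lipopolysaccharide, and Il1rn lay within 2-fold at a log2 ratio of 0.58. The 8 lower genes included the granule proteins Ltf, with 178.5 and 81285.5 mean reads, and Lcn2, with 95 and 17701, at log2 ratios of -9.26 and -7.96. The median log2 ratio of the 11 was -4.76.

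Of 17 genes for reported serum amyloid A receptors and binding partners, 9 were listed, with 3 higher, 3 lower and a median log2 ratio of -0.73. P2rx7, an ATP-gated channel, had 875 mean reads in the pleural cavity and 84 in the marrow, a log2 ratio of 2.93. The lipid and particle receptor Cd36 had 1.85, and Cd14 had 1.51. Fpr2, a formyl peptide receptor, had -2.70 on 42.5 and 208.5 mean reads, and Scarb1, which takes up lipoprotein lipid, had -1.51.

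Of 30 genes for inducers of serum amyloid A and their transcription factors, 16 were listed, with 6 higher, 4 lower and a median log2 ratio of 0.61. Without scaling 9 were higher and 3 lower, and with the most abundant genes left out of the sums 4 were higher and 4 lower. Lifr, a receptor of the interleukin 6 family, had 2806.595 mean reads in the pleural cavity and 103.5 in the marrow, a log2 ratio of 4.31, with divided reads. Of the NF-κB subunit genes, Relb had 2.08 and Nfkb2, with divided reads, 1.23, while Nfkb1 at 0.60 and Rela at 0.37 lay within 2-fold. Of the C/EBP genes of the list, Cebpd was lower, with 191.155 and 439.435 mean reads, divided reads and a log2 ratio of -1.63, and Cebpa, Cebpb and Cebpe were not listed, nor was Stat3. Nfkbia, the inhibitor that NF-κB itself induces, had 27996.5 and 5609 mean reads and 1.88. The decoy receptor Il1r2 had -4.46, and the cytokine gene Tnf had 183.5 and 547.5 mean reads and a log2 ratio of -2.01.

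**Figure D1:**
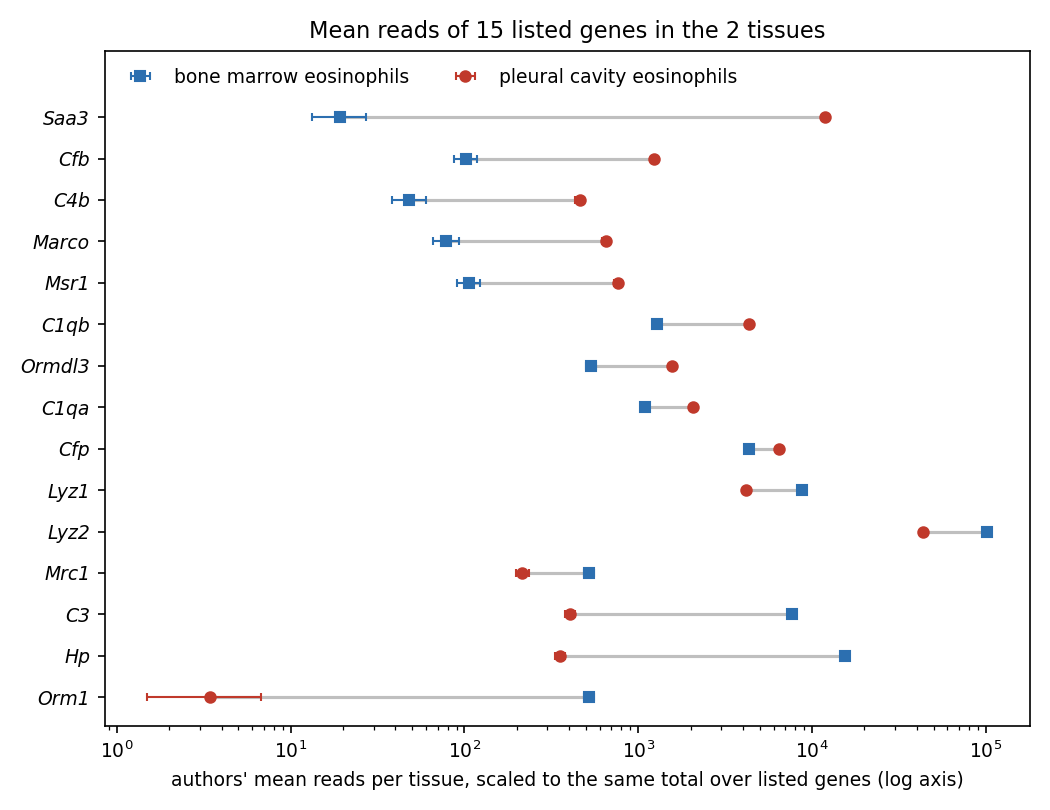
Authors' mean reads of 15 of the 16 genes in pleural cavity eosinophils (red circles) and bone marrow eosinophils (blue squares), scaled to the same total over the listed genes, on a log axis. Bars are exact 95% Poisson intervals of counting error, often smaller than the symbol. Saa3 at the top and Orm1 at the bottom are the farthest apart, in opposite directions.

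Complement genes moved in both directions, with C3 and Fcnb lower and Cfb, C4b and C1qb higher. The classical pathway starts with C1q, whose A and B chains were listed. C1qb had 5065 mean reads in the pleural cavity and 1093 in the marrow, 3.42-fold higher (interval 3.26 to 3.58). C1qa had 2402 and 939, 1.89-fold higher (interval 1.79 to 1.99), and passes 2-fold without scaling or with TMM. The genes lie side by side on chromosome 4, C1qb from 136880129 to 136886187 and C1qa from 136895917 to 136898803. The gene of the C chain, C1qc, is annotated between them and was not listed.

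C4b encodes complement C4, the protein that C1 cleaves. It had 534.61 mean reads in the pleural cavity and 41.43 in the marrow, 9.52-fold higher (interval 7.59 to 12.03). This value is uncertain, since reads were divided and 16.5% of the 100-base windows of its longest transcript also occur in C4a. Cfb encodes factor B, the protease of the alternative pathway. It had 1432 and 87.5 mean reads, 12.1-fold higher (interval 10.4 to 14.1), with whole reads, although GENCODE annotates an overlapping gene model, Gm20547, that holds 81.0% of its windows. Cfp encodes properdin, which stabilises the alternative pathway convertase. It had 7493 and 3704 mean reads, 1.49-fold higher (interval 1.45 to 1.53), and passes 2-fold only where reads are not scaled.

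C3, the component on which all pathways meet, was lower. It had 472.5 mean reads in the pleural cavity and 6544 in the marrow, 18.8-fold lower (interval 17.6 to 20.1). The members of the pathway were therefore not lower or higher as a group, and their direction held under each scaling tried.

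Cfb and C4b lie close together on chromosome 17, Cfb from 34856374 to 34862518 and C4b from 34728380 to 34743882, both on the minus strand. Within 200 kb of Cfb there are 24 other protein-coding genes, of which 9 were listed. C4b, at a log2 ratio of 3.22, and Ddah2, an enzyme gene of arginine metabolism, at 1.81, were higher. Vars at -1.78, with divided reads, Lsm2 at -1.31 and Slc44a4, with 0 and 31.5 mean reads, were lower. Clic1 at 0.57, Nelfe at -0.65, Neu1 at -0.70 and Ehmt2 at -0.73 lay within 2-fold. C3 lies on the same chromosome, from 57203970 to 57228136.

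Lists of complement genes by role, with 56 different genes in all, covered the rest of the system, and 20 of the 56 were listed, with 6 higher, 7 lower and 7 within 2-fold. Without scaling 11 in place of 6 were higher, while 7 were again lower. Of 16 recognition proteins and proteases, 5 were listed, 1 higher and 1 lower, and 3 were higher without scaling and 2 with TMM. The lower one was Fcnb, the gene of ficolin B, a lectin that starts the lectin pathway, with 35 mean reads in the pleural cavity and 20793 in the marrow, 806-fold lower (interval 637 to 1033). C1ra and C1rl, of the C1r protease family, had log2 ratios of 0.79 and 0.27. C3 and C4b were the 2 listed of 11 genes for C2 to C5 and the terminal components. Of 4 alternative pathway activators, 3 were listed, Cfb, Cfp and C3, with 1 higher and 1 lower.

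Among the regulators, Cr1l, the rodent membrane regulator of C3 cleavage, had 5248 mean reads in the pleural cavity and 1896 in the marrow, a log2 ratio of 1.03, and 0.83 with the most abundant genes left out of the sums. Few reads lay behind a lower pair: Clu, which encodes clusterin, had 7 and 96 mean reads, and Serping1, which encodes the C1 inhibitor, had 2.5 and 39.

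Of 11 receptor genes, 7 were listed, 1 higher and 3 lower, with a median log2 ratio of 0.35. Without scaling 3 were higher, and with TMM 2, C5ar1 being the added one. C3ar1, which encodes the receptor of the fragment C3a, had 19238 mean reads in the pleural cavity and 935 in the marrow, 15.2-fold higher (interval 14.5 to 15.9). The receptor gene was thus higher where C3 itself was lower. C5ar1, for the C5a receptor, was 1.995-fold higher (interval 1.93 to 2.07), with 5904.5 and 2183 mean reads and a log2 ratio just under 1. Lower log2 ratios were those of Cd93 at -2.70, with divided reads, Calr at -2.40 and C1qbp at -1.67, genes once described as C1q-binding proteins.

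**Figure D2:**
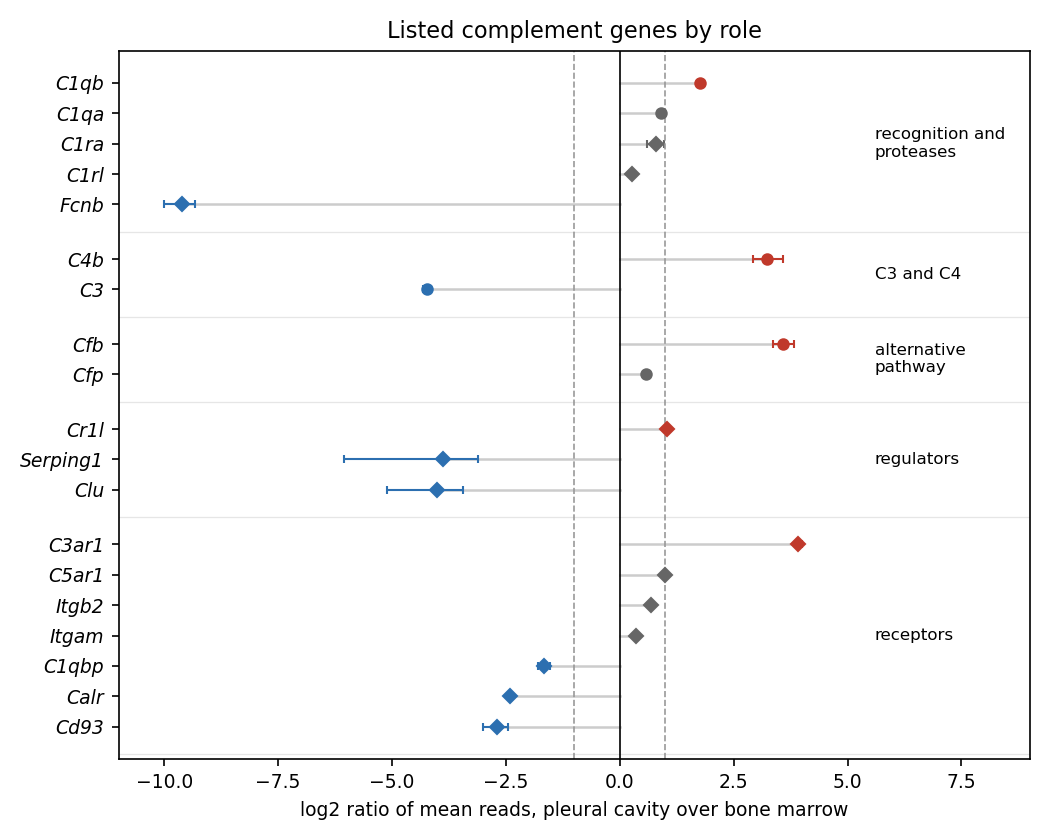
Log2 ratios of mean reads, pleural cavity over bone marrow, for 19 of the 20 listed complement genes grouped by role. Circles are genes of the symbol pattern and diamonds other listed genes, coloured red above and blue below 2-fold (dashed lines), with bars for 95% counting intervals. C3 at -4.23 and Fcnb at -9.61 lie to the left, Cfb at 3.58 and C3ar1 at 3.92 to the right.

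Lysozymes cut bacterial cell walls. Lyz2, the form of myeloid cells, had the most mean reads of the 16 genes in both tissues. It had 50392.515 mean reads in the pleural cavity and 87527.165 in the marrow, 2.36-fold lower (interval 2.34 to 2.37). Lyz1, the form of Paneth cells, had 4871.485 and 7484.835, 2.08-fold lower (interval 2.03 to 2.14). Both fall within 2-fold where reads are not scaled, and Lyz1 also with TMM. The genes lie next to each other on chromosome 10, and reads were divided between them: the mean reads of each are fractional while their sums are whole, 55264 in the pleural cavity and 95012 in the marrow. The split is therefore uncertain, and the log2 ratio of the sum, -1.22, is the safer value. Lyz2 took 91.2% of the sum in the pleural cavity and 92.1% in the marrow.

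The coding sequences of Lyz1 and Lyz2 show how few bases separate their reads. Over 444 bases without the stop codon they differ at 22, and the longest identical run is 118 bases, longer than a read of 100. In the whole transcripts, 2.06% of the 100-base windows of Lyz1 also occur in Lyz2. Below are the opening 120 coding bases of each from GENCODE, 5′ to 3′, with the 11 bases that differ in capitals.

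Lyz1: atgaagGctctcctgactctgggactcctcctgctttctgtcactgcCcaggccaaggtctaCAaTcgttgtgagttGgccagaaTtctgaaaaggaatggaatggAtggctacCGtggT

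Lyz2: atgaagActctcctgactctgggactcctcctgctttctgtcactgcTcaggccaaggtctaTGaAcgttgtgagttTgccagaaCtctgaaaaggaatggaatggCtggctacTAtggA

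A list of 17 lysozyme and antimicrobial granule genes had 15 listed, with 14 lower, 1 higher and a median log2 ratio of -9.26. Elane, Mpo, Camp, S100a8 and Ctsg had log2 ratios from -9.64 to -9.41, and Mpo, the gene of myeloperoxidase, had 374 and 196096.5 mean reads. Wfdc17, a secreted whey acidic protein gene, was the higher one, at 2.95. The lysozymes thus differed far less between the tissues than other granule genes.

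Markers of neutrophils were lower in the pleural cavity, as were Hp, C3, Orm1 and Fcnb, and as were 50.5% of all listed genes. The lysozymes, at log2 ratios of -1.06 and -1.24, lay near the median of all listed genes, -1.02. The eosinophil granule genes Epx and Prg2, at -9.10 and -8.99, were lower as well. All 13 genes of the neutrophil list were listed and 12 were lower, Mmp9 being the exception at 0.87. Their mean reads summed to 71383.5 in the pleural cavity and 1335767.1 in the marrow, 0.448% and 11.4% of the listed reads, with Mmp9 the most abundant in the first and Ngp in the second. Mmp9 and Retnlg made up most of the pleural cavity sum, with 34715 and 33927 mean reads there, against 14050.5 and 147022 in the marrow. The defining marker Ly6g had 5 and 1088 mean reads. The monocyte list, 4 of 9 listed and all 4 lower, summed to 5502 and 34963.5, led by Plac8 in the pleural cavity and by Ly6c2 in the marrow, with log2 ratios of -1.81 and -5.62. Mast cell or basophil markers were 6 of 9 listed and all 6 lower, 293 against 12432 reads, with Kit and Prss34 the most abundant. The part of these cells in the lower values was not tested.

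The macrophage receptors of the pattern were split. Marco, a scavenger receptor of resident macrophages, had 754 mean reads in the pleural cavity and 67.5 in the marrow, 8.24-fold higher (interval 6.91 to 9.90). Msr1, the class A scavenger receptor, had 885.5 and 91, 7.18-fold higher (interval 6.16 to 8.41). The intervals of both receptors overlap. Mrc1, the mannose receptor often used to mark alternatively activated macrophages, had 250.5 and 445.5, 2.41-fold lower (interval 2.16 to 2.70), and falls within 2-fold where reads are not scaled. Timd4 and Mertk, receptors by which resident macrophages bind dying cells, were not listed. Ormdl3 had 1812 and 460.5, 2.90-fold higher (interval 2.70 to 3.12).

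In a list of 21 scavenger receptor genes, 13 were listed, with 4 higher, 8 lower and a median log2 ratio of -1.27. Cd36 and Cd5l were higher along with Marco and Msr1. Cd5l, a secreted macrophage protein gene, had 2005 and 345 mean reads, 4.29-fold higher. Clec7a, the beta-glucan receptor, had -2.20. Scara3, at 0 mean reads in the pleural cavity and 13.5 in the marrow, was at least 6.10-fold lower with a floor of 3 mean reads, which leaves the median as it is.

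Of 29 genes for the engulfment of dying cells, 13 were listed, with 6 higher, 3 lower and a median log2 ratio of 0.97. Pros1, which encodes the bridging protein S, had 2253 mean reads in the pleural cavity and 71 in the marrow, a log2 ratio of 4.53. Axl, a receptor of the family that protein S and its relative Gas6 bridge to dying cells, had 89.5 and 822.5, at -3.62. Cd300a, a lipid receptor with divided reads, had 2.22, and Dock1, which moves the membrane, had -2.50. C1qb, which coats dying cells, is on this list as well, at 1.77.

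**Figure D3:**
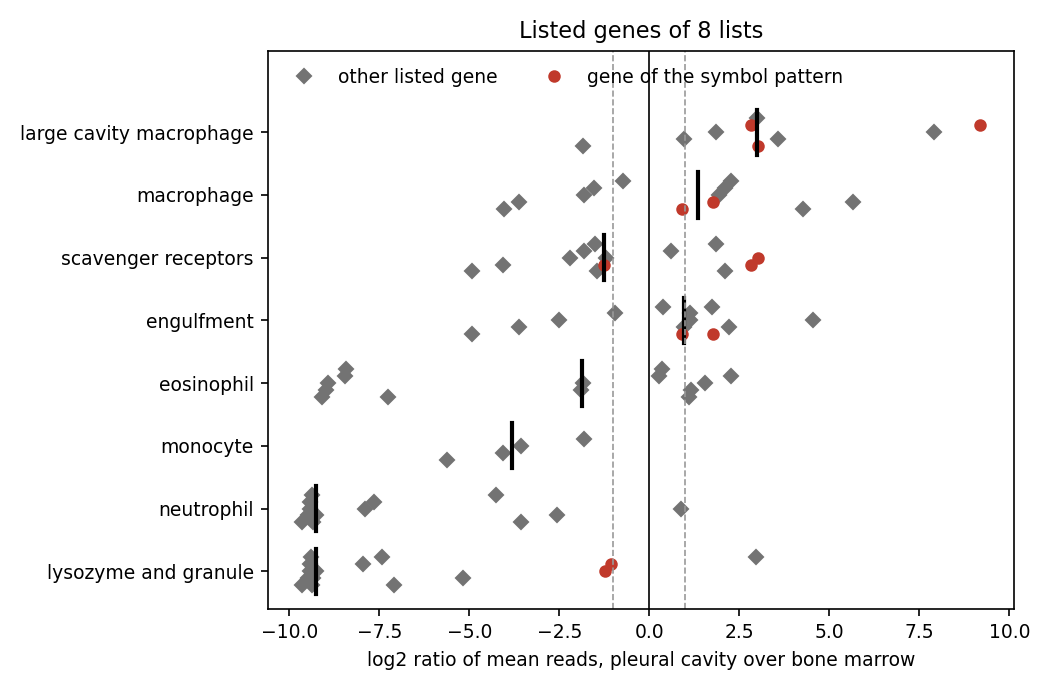
Log2 ratios of mean reads, pleural cavity over bone marrow, for the listed genes of 8 lists. Red circles are genes of the symbol pattern, grey diamonds other listed genes, and black bars list medians, from 2.999 for large cavity macrophage markers to -9.26 for neutrophil markers. Points are shifted up or down only to keep them apart, and dashed lines mark 2-fold.

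Macrophage markers moved with Saa3, Marco, Msr1 and C1qb, in part. Of 23 macrophage markers, 12 were listed, with 6 higher and 4 lower and a median log2 ratio of 1.34. Leaving out C1qa and C1qb, 10 were listed, 5 higher and 4 lower, with a median of 0.60. The 12 summed to 112133.5 mean reads in the pleural cavity and 28658 in the marrow, 0.703% and 0.244% of listed reads, and Adgre1, the gene of F4/80 by which both tissues were gated or enriched and which eosinophils also express, was the most abundant in both. Csf1r, a defining marker, had 20627.5 and 3973.5 mean reads, 3.83-fold higher. Folr2, with 877 and 12 mean reads, was 53.9-fold higher (interval 36.1 to 84.4), and Maf had a log2 ratio of 4.27. Ms4a7 and Axl went the other way, at -4.04 and -3.62. The defining markers Cd68, Fcgr1, C1qc and Mertk were not listed.

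Of 13 markers of large cavity macrophages, the resident F4/80-high cells of serous cavities, 9 were listed, 7 higher and 1 lower, and the defining factor gene Gata6 was not listed. Saa3, Marco and Msr1 are on this list. Without them, 6 were listed, 4 higher and 1 lower, with a median log2 ratio of 2.42. Their mean reads, without these 3, summed to 43476 in the pleural cavity and 81463.2 in the marrow, because Alox15, the most abundant in both and also an eosinophil gene, was lower at -1.85. Cxcl13, a chemokine gene of cavity macrophages, had 438 and 0.5 mean reads, 646-fold higher with an interval of 116 to 25550. Fn1, with 8314.5 and 766.5, had a log2 ratio of 2.999, and Prg4, with divided reads, had 3.58. Saa3 had more mean reads in pleural cavity eosinophils than any of these except Alox15. The part of macrophages in the higher values of Saa3, Marco, Msr1 and C1qb was not tested.

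Eosinophil markers numbered 15, of which 14 were listed, 4 higher and 8 lower. SiglecF was part of the gate in both tissues, and a ratio between the tissues cannot check the cell type. The defining surface markers were higher in pleural cavity eosinophils, Siglecf with 21371 and 7105.5 mean reads and Ccr3 with 67556.5 and 17177.5. With the most abundant genes left out of the sums, 2 markers in place of 4 were higher, and Siglecf fell within 2-fold, at a log2 ratio of 0.95 in place of 1.15. The defining granule genes Epx, with 341.5 and 139061.5, and Prg2, with 1482 and 555403.5, were lower, at log2 ratios of -9.10 and -8.99, as were Ear1 at -8.93, Prg3 at -8.45 and Ear2 at -8.43. Il5ra was not listed. The 14 summed to 256602.9 and 1188435.3 mean reads, with Adgre1 the most abundant in the pleural cavity and Prg2 in the marrow.

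Markers of other cells that a pleural lavage or marrow sort could hold were also counted. The purity of over 99% is the methods' figure and was not checked here. Of 13 mesothelial markers, 5 were listed, 2 higher and 3 lower, with sums of 2178 and 2594 mean reads. The defining Msln, Upk3b and Wt1 were not listed, and the keratin gene Krt18 had the most pleural cavity reads of the list, 1918, against 518 in the marrow. Krt7 had 2.81 and Cldn15, the most abundant in the marrow, -5.22. Of 8 epithelial or tumour markers, 2 were listed, Krt18 and Cdh1, with sums of 1923 and 632.5, and Epcam was not listed. Of 8 fibroblast markers, 4 were listed, all lower, with 24.5 and 365.5 reads. Col1a1 and Col3a1, with 8 mean reads each, led in the pleural cavity, and Dcn led in the marrow. Of 11 B, T and NK markers, 3 were listed, 1 higher and 2 lower, with 413 and 291.5 reads, led by Ms4a1 and Cd3d, while Cd79a and Cd3e were not listed. Of 7 dendritic cell markers, 2 were listed, 1 higher and 1 lower, with 215 and 87 reads, led by Ccr7, and Zbtb46 was not listed. Of 10 erythroid and platelet markers, 4 were listed, 1 higher and 3 lower, with 1694.5 and 2817.5 reads, led by Pf4, at 3.65, and Itga2b, at -2.61. The part of these cells in the values above was not tested.

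Levels of different genes compare only per length of transcript. In reads per kilobase of the longest annotated transcript, with each tissue's listed reads scaled to 1000000, the order in pleural cavity eosinophils opened with Lyz2 at 2401, Saa3 at 393, C1qb at 292, Cfp at 287, Lyz1 at 242 and C1qa at 145. Below these came Ormdl3 at 52.0, Cfb at 32.6, Marco at 24.6, Hp at 19.3 and Msr1 at 15.3, and among the last were C4b at 6.23, C3 at 5.77, Mrc1 at 2.92 and Orm1 at 0.324. Neighbours among these whose 95% counting intervals overlap are C1qb with Cfp and C4b with C3. Saa3 was thus the second of the 16 in the pleural cavity. C3 was among the last, but with the shortest protein-coding transcript it comes to 94.1, above Msr1, Ormdl3 and Hp at 80.4, 52.0 and 19.3.

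The order in the marrow was another. It opened with Lyz2 at 5654, Hp at 842.5, Lyz1 at 504, Cfp at 192.5 and C3 at 108, went on with C1qb at 85.4, C1qa at 76.8, Orm1 at 48.9, Ormdl3 at 17.9 and Mrc1 at 7.05, and among the last were Marco at 2.98, Cfb at 2.70, Msr1 at 2.13, C4b at 0.655 and Saa3 at 0.638. Intervals overlap between Marco and Cfb, between Cfb and Msr1, and between C4b and Saa3. Lyz2 led in both tissues. These levels depend on the transcript assumed. With the shortest protein-coding transcript, C3 comes to 1766 in the marrow, next after Lyz2, and Saa3 to 1557 in the pleural cavity, also next after Lyz2.

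Promoter sequences from RefSeq on GRCm38.p6, 250 bases before to 50 after each start, were found for 9 of the 16 genes, and not, among others, for Cfb, C4b, Msr1, C1qa, Hp and Orm1. They were searched on both strands for a C/EBP-type motif, TTNNGNAA, a STAT-type motif, TTCNNNGAA, and the NF-κB consensus. The C/EBP-type motif occurs in 6 of the 9 and in 40.7% of all 32851 promoters of this length, the STAT-type motif in none of the 9 and in 8.30% of all, and the NF-κB consensus in none of the 9 and in 8.46% of all. Saa3 holds the C/EBP-type motif at 4 places, C3 and Marco at 3 each, some overlapping in Marco, while 3.60% of all promoters hold it at 3 or more. Places were counted at the first start given for each gene. RefSeq annotates Saa3 up to 46719615, so the start used for it lies inside the annotated gene. The promoters of Saa3 and C3 are shown because both are dense in this motif while the genes differed in opposite directions, with the matches in capitals. A match is a run of letters and not a shown binding site.

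Saa3, chr7:46715627-46715926, minus strand: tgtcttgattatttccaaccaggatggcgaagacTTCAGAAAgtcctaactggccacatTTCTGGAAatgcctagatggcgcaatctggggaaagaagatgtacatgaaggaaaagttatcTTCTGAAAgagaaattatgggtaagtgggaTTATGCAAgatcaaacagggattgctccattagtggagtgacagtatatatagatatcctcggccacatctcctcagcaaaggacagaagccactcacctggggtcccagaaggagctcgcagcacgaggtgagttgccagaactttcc

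C3, chr17:57228087-57228386, minus strand: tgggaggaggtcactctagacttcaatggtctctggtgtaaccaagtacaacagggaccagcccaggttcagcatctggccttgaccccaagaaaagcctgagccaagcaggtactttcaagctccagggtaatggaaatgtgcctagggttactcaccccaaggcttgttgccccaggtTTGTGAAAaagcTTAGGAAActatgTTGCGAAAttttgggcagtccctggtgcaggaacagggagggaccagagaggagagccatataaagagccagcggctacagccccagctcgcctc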

How the data were processed

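Per the submitters' processing notes and the study's methods, reads were trimmed (SOAPnuke), aligned to GRCm38 (HISAT2 2.1.0) and mapped to genes (Bowtie2 2.2.5), and the authors estimated expected counts per gene with RSEM 1.2.8. The deposited table holds the authors' mean of these expected counts per tissue, for the genes they called different with DESeq2. Its columns of log2 fold change, p-value and q-value hold that comparison and were not used. Columns of single libraries left unused numbered 0, and the test planned for values per library was not run.

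Means were scaled to equal sums over listed genes, and folds past 2 were counted. The calculation was tested on simulated data. Fractional means, not a multiple of 0.5 after a tolerance of 1e-06 on the sum, mark divided reads. Intervals used scipy 1.17.1, and TMM used edgeR 4.0.16. Of the listed genes, 5656 matched GENCODE, and all 16 members did.

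Members and lists were chosen with earlier results of these data known. Genes that are not reported here still enter the counts. Named are the other members and, from each list, up to 5 genes with the largest log2 ratio in size among those with at least 100 mean reads in 1 tissue, defining markers, genes near Saa3 and Cfb, and Saa3's nearest genes. A gene named for a count of 5 or fewer, and the NF-κB subunit and C/EBP genes, were chosen after their values were seen.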

Additional observations from a re-analysis of the deposited data

How the results depend on the processing

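No paired analysis was possible because the table holds tissue means with no replicate number, and leaving out replicates, the edgeR and DESeq2 tests and the replicate block were not run for the same reason. The Saa3 log2 ratio ranged from 8.93 with a pseudocount of 5 to 9.62 without scaling, within its counting interval. Without scaling, 3 members in place of 6 were lower by over 2-fold (C3, Hp and Orm1) and 1768 of all listed genes higher in place of 929, since every ratio moves up by the difference of the sums. With a 4-fold threshold, 5 members were higher and 3 lower, and 304 listed genes higher, as fewer genes can pass it. The other alternatives moved these counts by at most 1.5 times, which is reached without genes with divided reads, where 4 members were lower. Without Ormdl3, an alternative chosen after seeing the data, 7 members were higher and 6 lower. Of 75 log2 ratios of the other members under alternatives, 33 left their counting interval and 0 of those past 2-fold changed sign. Of 250 counts over the lists, 10 moved by over 1.5 times, all with another scaling and all counts of higher genes, among complement genes of any role, recognition genes, activators, regulators and receptors and among eosinophil and neutrophil markers. Levels per kilobase moved for 12 of 32 values with the shortest protein-coding transcript, farthest for C3, from 5.77 to 94.1 in pleural cavity eosinophils. With 2 libraries per tissue and means alone, depth per library is unknown, and values such as the 4 mean reads of Orm1 are imprecise.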
